A study of Mus musculus with 12 samples.

Results

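The transcripts of 9 genes of the complement system were followed in mouse bone marrow-derived macrophages: the C1q chains C1qa, C1qb and C1qc, the components C3 and C4b, the alternative pathway genes Cfb and Cfp, and the receptors C3ar1 and C5ar1. They were taken by gene symbol from 24465 genes listed in 1 or both of the 2 deposited tables, and all 9 have a row in each table. Macrophages were grown from the marrow of Klf6fl/fl:Lyz2cre mice, whose Klf6 alleles carry loxP sites, or of Lyz2cre mice. All animals carried Lyz2cre, the Cre recombinase expressed from the lysozyme 2 gene, which is active in myeloid cells. Cells of each genotype received 10 ng/ml of the inflammatory cytokine TNF during 6 h or no TNF (untreated), and each of the 4 groups holds 3 libraries. Age, sex and strain of the mice are not stated. Whether replicate libraries stem from different mice or cultures is not stated either, so the p-values speak only of the spread among these libraries.

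Complement is a cascade of plasma proteins that marks microbes, immune complexes and dying cells for uptake. In the classical pathway C1q, a protein built from the A, B and C chains, binds its target and sets off the proteases C1r and C1s, which cleave C4 and C2 to form the enzyme that cleaves C3. In the alternative pathway factor B (Cfb) supplies the protease of that enzyme and properdin (Cfp) stabilises it. The fragments C3a and C5a act on macrophages through the receptors C3ar1 and C5ar1. Liver makes most of the C3 of plasma, whereas macrophages are a main source of C1q and also release properdin.

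Between 16.9 and 23.4 M reads were assigned to genes per library. Values are normalized counts, each a read count divided by the size factor of its library, which sets the typical gene level among the 6 libraries of a table. Klf6 itself had 4161 ± 43.4 normalized counts in Klf6fl/fl:Lyz2cre cells with TNF, against 7447 ± 255 in Lyz2cre cells with TNF (mean ± SD, n = 3 libraries each). Without TNF it had 7101 ± 269 in Klf6fl/fl:Lyz2cre cells, against 10118 ± 174 in Lyz2cre cells. The genotypes did not overlap, and Klf6 reads remained in the Klf6fl/fl:Lyz2cre libraries. All 10 macrophage markers (among them Adgre1, Csf1r and Cd68) were detected in every group, and they took 0.774 to 1.32% of reads. In bulk RNA, fewer cells of a type and less RNA per cell cannot be told apart.

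The 3 C1q genes lie side by side on the minus strand of chromosome 4 (GENCODE vM21, GRCm38), at chr4:136880129-136898803. This stretch of 18675 bp leaves 3616 bp between C1qb and C1qc and 2851 bp between C1qc and C1qa. The gene of C3 lies at chr17:57203970-57228136, C4b at chr17:34728380-34743882 and Cfb at chr17:34856374-34862518, all on the minus strand. RefSeq windows from 250 bases before to 50 bases after the start (GRCm38.p6) were at hand for 6 of the 9 genes. The windows of C1qb (chr4:136886151-136886450), C1qc (chr4:136892865-136893164) and C3 (chr17:57228087-57228386) are shown because C1q and C3 had the highest counts among the components with TNF, where C1q stood below and C3 above its untreated level. They read 5′ to 3′ on the minus strand. Capitals mark matches, on either strand, to the kappaB motif, to CACCC (a motif of Krüppel-like factors), to GGGCGG (the GC box), to TTNNGNAA (a C/EBP-like motif) or to GAAANNGAAA (an interferon response motif).
C1qb: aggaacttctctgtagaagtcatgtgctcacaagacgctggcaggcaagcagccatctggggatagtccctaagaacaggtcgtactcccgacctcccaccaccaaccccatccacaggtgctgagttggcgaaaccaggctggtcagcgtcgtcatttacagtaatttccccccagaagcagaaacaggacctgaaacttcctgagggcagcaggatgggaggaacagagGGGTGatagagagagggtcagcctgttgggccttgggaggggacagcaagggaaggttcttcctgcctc
C1qc: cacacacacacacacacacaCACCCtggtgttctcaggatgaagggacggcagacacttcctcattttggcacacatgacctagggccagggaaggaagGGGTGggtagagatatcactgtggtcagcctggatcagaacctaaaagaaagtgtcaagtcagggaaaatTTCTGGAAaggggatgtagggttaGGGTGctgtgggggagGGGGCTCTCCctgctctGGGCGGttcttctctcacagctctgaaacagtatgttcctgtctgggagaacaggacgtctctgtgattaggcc
C3: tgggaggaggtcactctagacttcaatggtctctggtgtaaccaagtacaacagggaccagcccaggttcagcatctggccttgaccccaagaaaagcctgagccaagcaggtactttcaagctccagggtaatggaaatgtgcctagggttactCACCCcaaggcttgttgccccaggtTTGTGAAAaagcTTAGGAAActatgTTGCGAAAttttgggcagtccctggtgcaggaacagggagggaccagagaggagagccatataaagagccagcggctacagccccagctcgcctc
The C1qb window holds 1 CACCC match, written GGGTG on this strand. The C1qc window holds 3 matches to CACCC, 1 to GGGCGG, 1 to TTNNGNAA and 1 to kappaB, whose letters are GGGGCTCTCC. The C3 window holds 1 CACCC match and 3 runs that match TTNNGNAA, of which TTGCGAAA matches it on both strands. Of 27025 mouse promoter windows of the same length, 56.7% hold CACCC, 35.9% GGGCGG, 40.7% TTNNGNAA, 4.35% kappaB and 3.49% GAAANNGAAA, which none of the 6 windows holds. Such matches describe the letters and were set against no binding data.

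C1q transcripts were lower in Klf6fl/fl:Lyz2cre cells both with TNF and without it, and the A chain gene differed the most. C1qa had 9613, 9792 and 9363 normalized counts in Klf6fl/fl:Lyz2cre cells with TNF, against 23376, 19142 and 23036 in Lyz2cre cells with TNF. It had 18273, 18524 and 21278 in untreated Klf6fl/fl:Lyz2cre cells, against 39251, 41787 and 40732 in untreated Lyz2cre cells. The genotypes did not overlap in either condition, and the means were 2.28 times lower in Klf6fl/fl:Lyz2cre cells with TNF and 2.10 times lower without it. In limma, fitted over all genes on log2(normalized count + 1) with Benjamini-Hochberg adjustment, the log2 difference of C1qa was -1.18 ± 0.06 (SE; adjusted p = 5.9e-11) with TNF and -1.07 ± 0.05 (adjusted p = 1.2e-12) untreated. All differences between genotypes are Klf6fl/fl:Lyz2cre minus Lyz2cre, and genes with an adjusted p below 0.05 are counted as called.

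The B and C chain genes differed less. C1qb had 19240.1, 18965 and 17734 normalized counts in Klf6fl/fl:Lyz2cre cells with TNF, against 32866, 28129 and 32947 in Lyz2cre cells with TNF. Its untreated values were 40034, 40333 and 44866 in Klf6fl/fl:Lyz2cre cells, against 66697, 68409.8 and 65535 in Lyz2cre cells. Neither pair of groups overlapped, and limma gave log2 differences of -0.74 ± 0.06 (adjusted p = 7.9e-09) with TNF and -0.68 ± 0.04 (adjusted p = 1.1e-10) untreated. C1qc had 10504, 10634 and 9454 normalized counts in Klf6fl/fl:Lyz2cre cells with TNF, against 19436, 15658 and 18804 in Lyz2cre cells with TNF. Untreated, C1qc had 27915, 27698 and 29978 in Klf6fl/fl:Lyz2cre cells, against 43273, 47319 and 45824 in Lyz2cre cells. Here too no libraries overlapped between genotypes, and the limma log2 differences were -0.81 ± 0.07 (adjusted p = 2.7e-08) with TNF and -0.67 ± 0.04 (adjusted p = 7.7e-11) untreated.

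**Figure D1:**
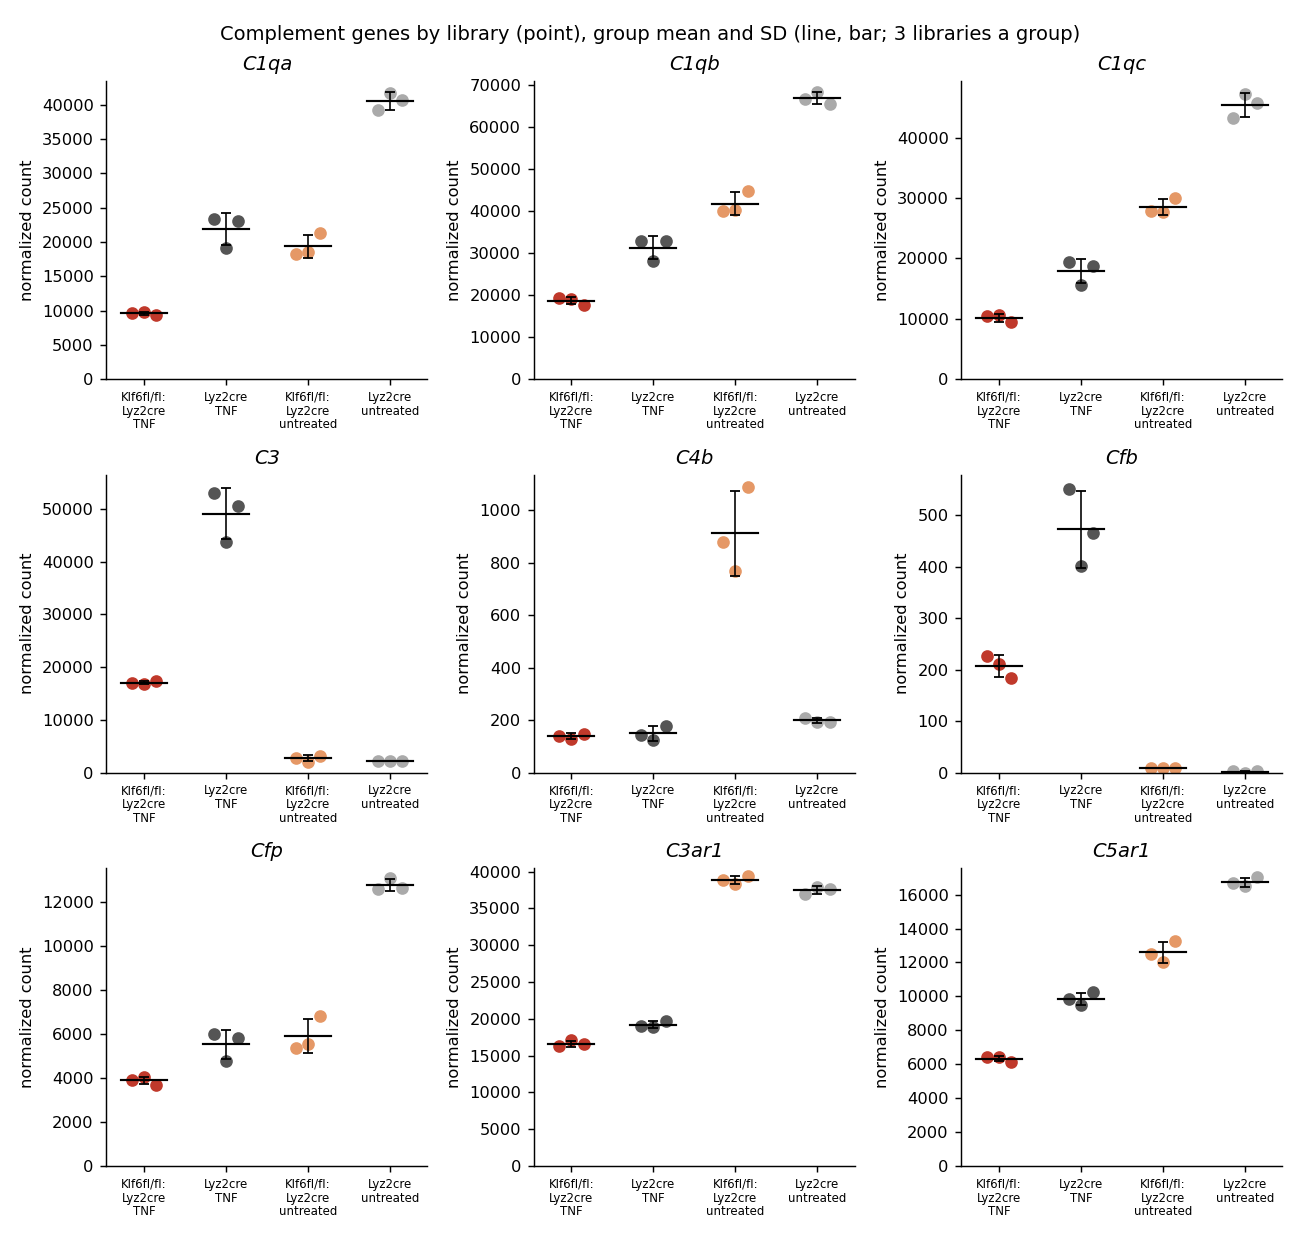
Normalized counts (y axis, linear from 0) of the 9 complement genes in the 12 libraries, with 1 panel a gene; points are libraries, lines group means and bars SD (n = 3), and the TNF and untreated libraries were normalized separately. C1qa sits at 9363 to 9792 in Klf6fl/fl:Lyz2cre cells with TNF and at 39251 to 41787 in untreated Lyz2cre cells, C3 and Cfb stand high in the TNF groups, and C4b stands high in untreated Klf6fl/fl:Lyz2cre cells.

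Per length of exon, C1qb had the highest level of the 9 genes in each group. It had 1042 ± 45.3 reads per kilobase and M reads in Klf6fl/fl:Lyz2cre cells with TNF, against 1394 ± 102 in Lyz2cre cells with TNF, and 2024 ± 129 in untreated Klf6fl/fl:Lyz2cre cells, against 2958 ± 49.4 in untreated Lyz2cre cells. On this scale it ranked 21 of 20599 genes with reads in the first of these groups, 15 of 19768 in the second, 13 of 22312 in the third and 8 of 21009 in the last. Summed, the C1q genes took 0.234 ± 0.010% of reads in Klf6fl/fl:Lyz2cre cells with TNF, against 0.344 ± 0.029% in Lyz2cre cells with TNF. Untreated, they took 0.473 ± 0.029% in Klf6fl/fl:Lyz2cre cells, against 0.736 ± 0.016% in Lyz2cre cells.

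The mix of the chains differed between genotypes as well, in a measure that no scaling between libraries can move. Per kilobase, C1qa made up 29.2 ± 0.63% of the C1q sum in Klf6fl/fl:Lyz2cre cells with TNF, against 35.5 ± 0.35% in Lyz2cre cells with TNF, and 25.9 ± 0.51% in untreated Klf6fl/fl:Lyz2cre cells, against 31.5 ± 0.37% in untreated Lyz2cre cells. C1qb made up 54.2 ± 0.41% in Klf6fl/fl:Lyz2cre cells with TNF, against 48.7 ± 0.61% in Lyz2cre cells with TNF, and 53.5 ± 0.07% in untreated Klf6fl/fl:Lyz2cre cells, against 49.6 ± 0.81% in untreated Lyz2cre cells. C1qc made up 16.7 ± 0.42% in Klf6fl/fl:Lyz2cre cells with TNF, against 15.7 ± 0.28% in Lyz2cre cells with TNF, and 20.6 ± 0.46% in untreated Klf6fl/fl:Lyz2cre cells, against 19.0 ± 0.46% in untreated Lyz2cre cells. In all 6 comparisons the libraries of the genotypes did not overlap. A two-sided exact permutation test gave p = 0.1 for each (n = 3 against 3), the smallest p this design allows. The 6 are not separate results, since the shares of a library add up to the whole.

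**Figure D2:**
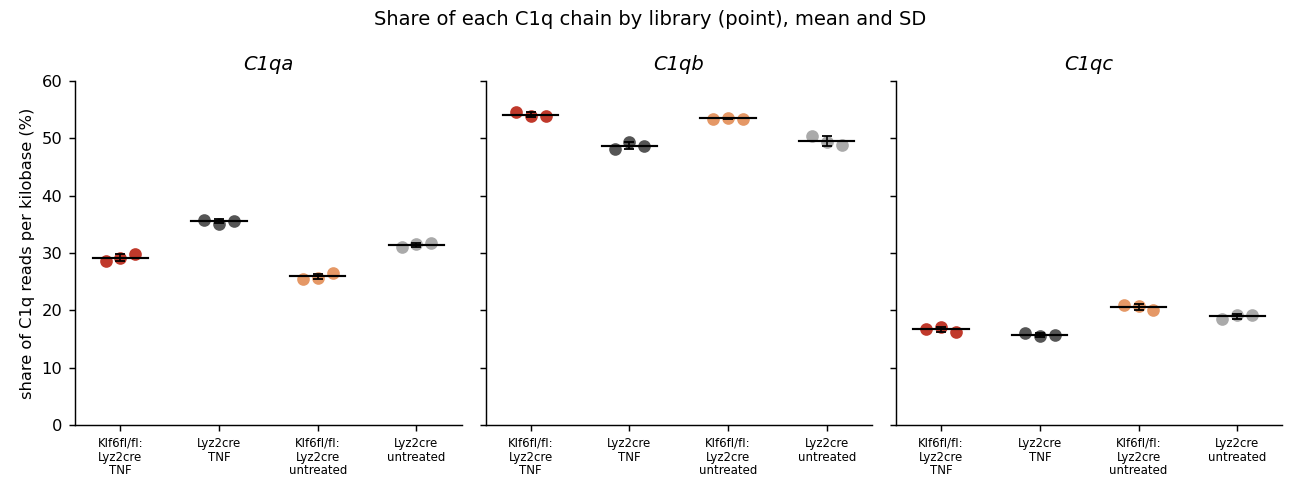
Share of each C1q chain gene (y axis, percent of C1q reads per kilobase of exon) in the 12 libraries; points are libraries, lines group means and bars SD (n = 3). The C1qa share is lower in Klf6fl/fl:Lyz2cre cells than in Lyz2cre cells under each condition, 29.2 against 35.5% with TNF and 25.9 against 31.5% untreated, and the C1qb share is higher.

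The macrophage markers moved with the C1q genes in untreated cells: 8 of 10 fell and 2 rose, and their sum was 0.774 to 0.826% of reads in Klf6fl/fl:Lyz2cre cells, against 1.31 to 1.32% in Lyz2cre cells. With TNF, 4 of 10 fell and 6 rose, and the sum was 0.985 to 0.988% in Klf6fl/fl:Lyz2cre cells, against 1.03 to 1.05% in Lyz2cre cells. Of all genes tested in limma, 29.3% were called lower and 27.6% higher untreated, and 30.8% lower and 26.5% higher with TNF. Of the 10, Itgam is also a complement receptor chain. The part of these markers in the C1q difference was not tested.

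C3, the protein on which all complement pathways converge, was lower in Klf6fl/fl:Lyz2cre cells with TNF but not without it. It had 16922, 16889 and 17340.2 normalized counts in Klf6fl/fl:Lyz2cre cells with TNF, against 53066, 43757 and 50588 in Lyz2cre cells with TNF. Without TNF it had 2804, 2088 and 3219 in Klf6fl/fl:Lyz2cre cells, against 2262, 2185 and 2242 in Lyz2cre cells. The genotypes lay far apart with TNF, where the mean was 2.88 times lower in Klf6fl/fl:Lyz2cre cells, and overlapped without it. Limma gave a log2 difference of -1.52 ± 0.06 (adjusted p = 9.6e-13) with TNF and 0.26 ± 0.10 (adjusted p = 0.032) untreated. The untreated call was lost in DESeq2 (log2 difference 0.29, adjusted p = 0.158) and on leaving out any 1 of 5 of the 6 untreated libraries, with adjusted p of 0.058 to 0.155 in limma. Without the third Klf6fl/fl:Lyz2cre library the limma log2 difference was 0.12.

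The difference between the 2 genotype differences, tested in limma over the 4 groups (TNF minus untreated), was -1.78 ± 0.14 on the log2 scale for C3 (adjusted p = 2.1e-09). Per kilobase, C3 ranked 171 of 20599 genes in Klf6fl/fl:Lyz2cre cells with TNF, against 74 of 19768 in Lyz2cre cells with TNF, and 1714 of 22312 in untreated Klf6fl/fl:Lyz2cre cells, against 2243 of 21009 in untreated Lyz2cre cells.

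C4b, which encodes mouse complement C4, differed in the other condition. It had 140.1, 126 and 149 normalized counts in Klf6fl/fl:Lyz2cre cells with TNF, against 144, 125 and 179 in Lyz2cre cells with TNF. Untreated, it had 878, 771 and 1089 in Klf6fl/fl:Lyz2cre cells, against 209, 194 and 195 in Lyz2cre cells. The genotypes overlapped with TNF and stood wide apart without it, where the mean was 4.58 times higher in Klf6fl/fl:Lyz2cre cells. In limma the log2 difference was -0.10 with TNF (95% interval -0.42 to 0.23, adjusted p = 0.609) and 2.18 ± 0.10 untreated (adjusted p = 2.2e-12), and the difference between them was -2.27 ± 0.19 (adjusted p = 5.5e-09). C4b has a near-identical neighbour, C4a, and counting could split reads between them, so its level is uncertain. C4a had 24.9 to 25.8 normalized counts in untreated Klf6fl/fl:Lyz2cre cells, against 28.4 to 37.5 in untreated Lyz2cre cells.

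Markers of stromal cells, which also express C4b and C3, moved with the untreated C4b difference. The untreated C3 estimate had the same direction, but its call was lost in DESeq2 and without most single libraries. Of 15 stromal markers 13 passed the filter and rose in untreated Klf6fl/fl:Lyz2cre cells, some of them, such as Postn at 0.896 CPM in untreated Lyz2cre cells, through the libraries where they are high. None of the 15 was at 0 in all libraries of a group. Their sum took 0.293 to 0.313% of reads there, against 0.0139 to 0.0166% in untreated Lyz2cre cells. With TNF, 9 of 11 tested rose, and the sum was 0.0201 to 0.0237% in Klf6fl/fl:Lyz2cre cells, against 0.0036 to 0.0051% in Lyz2cre cells. Of all genes tested, 27.6% were called higher untreated and 26.5% with TNF. The part of the stromal markers in these differences was not tested.

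Cfb, the protease subunit of the alternative pathway enzyme, was nearly silent without TNF. It had 227, 211 and 184 normalized counts in Klf6fl/fl:Lyz2cre cells with TNF, against 551, 401 and 464 in Lyz2cre cells with TNF. Untreated, it had 11, 9 and 11 reads in Klf6fl/fl:Lyz2cre cells, against 2, 0 and 3 reads in Lyz2cre cells. The genotypes did not overlap in either condition: Cfb was lower in Klf6fl/fl:Lyz2cre cells with TNF and higher without it. With TNF the limma log2 difference was -1.18 ± 0.12 (adjusted p = 3.4e-07). Untreated, Cfb fell below the filter of 1 CPM (1 read per M reads) in 3 libraries and was not tested. Its pooled reads, 31 against 5, gave a ratio of 4.85 after scaling (95% counting interval 1.87 to 16.0). That interval covers counting error only and leaves out the spread among libraries. The difference between the genotype differences was -3.25 ± 0.52 in limma (adjusted p = 3.6e-05). Cfb passed the filter of that test only through the TNF groups, where it is high, so the call is no support for a difference. The value depends on the number added before the logarithm and was -1.84 with 10 added. In GENCODE, Cfb overlaps the read-through gene Gm20547 over 6107 bp on the same strand, and Gm20547 has no row in the tables used here.

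Properdin transcripts were lower in Klf6fl/fl:Lyz2cre cells in both conditions, more so without TNF. Cfp had 3928, 4050.1 and 3708 normalized counts in Klf6fl/fl:Lyz2cre cells with TNF, against 5999, 4791 and 5812 in Lyz2cre cells with TNF. Untreated, it had 5389, 5567 and 6805 in Klf6fl/fl:Lyz2cre cells, against 12613, 13093 and 12637 in Lyz2cre cells. No libraries overlapped between genotypes. Limma gave log2 differences of -0.50 ± 0.07 (adjusted p = 9.6e-06) with TNF and -1.12 ± 0.06 (adjusted p = 1.8e-11) untreated, and the difference between them was 0.62 ± 0.11 (adjusted p = 9.1e-05). Scaled to total reads instead, the log2 difference of Cfp with TNF was -0.17 (limma, adjusted p = 0.0185).

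Neutrophils also make properdin and carry C5ar1. The 11 markers of neutrophils and their granule precursors took 0.000984 to 0.0012% of reads in Klf6fl/fl:Lyz2cre cells with TNF, against 0.0012 to 0.0014% in Lyz2cre cells with TNF, and 0.0444 to 0.0466% in untreated Klf6fl/fl:Lyz2cre cells, against 0.0519 to 0.0577% in untreated Lyz2cre cells. Untreated, 8 of the 11 could be tested in limma: 5 fell and 3 rose. Of all genes tested, 29.3% were called lower and 27.6% higher untreated, and 30.8% lower and 26.5% higher with TNF. The precursor genes Mpo, Elane and Prtn3 averaged 31.7, 18.6 and 21.2 CPM in untreated Klf6fl/fl:Lyz2cre cells, against 21.1, 12.2 and 9.87 CPM in untreated Lyz2cre cells. S100a8, S100a9, Camp, Ngp and Ltf went the other way. They averaged 74.1, 119, 24.8, 128 and 36.4 CPM in untreated Klf6fl/fl:Lyz2cre cells. In untreated Lyz2cre cells these means were 88.6, 139, 35.6, 182 and 64.2 CPM. Ly6g, Retnlg and Cxcr2 stayed under 1 CPM in both groups. With TNF 4 could be tested, of which 2 fell and none rose, and 3 of the 11 were at 0 in all Klf6fl/fl:Lyz2cre libraries and 4 in all Lyz2cre libraries. Their part in the Cfp and C5ar1 differences was not tested.

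Of the receptors, C5ar1 was lower in Klf6fl/fl:Lyz2cre cells in both conditions. This gene of the main receptor of the chemoattractant C5a had 6435, 6402 and 6150.1 normalized counts in Klf6fl/fl:Lyz2cre cells with TNF, against 9858, 9513 and 10231 in Lyz2cre cells with TNF. Untreated, it had 12484, 12057 and 13258 in Klf6fl/fl:Lyz2cre cells, against 16686, 16479 and 17026 in Lyz2cre cells. The genotypes did not overlap, and the limma log2 differences were -0.64 ± 0.04 (adjusted p = 1.5e-09) with TNF and -0.41 ± 0.04 (adjusted p = 2.4e-08) untreated. The difference between them was -0.23 ± 0.06 (adjusted p = 0.0019), and -0.04 (adjusted p = 0.588) in limma after scaling to total reads.

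C3ar1, the receptor of C3a, had 16251, 17079 and 16559.6 normalized counts in Klf6fl/fl:Lyz2cre cells with TNF, against 19072, 18904 and 19704 in Lyz2cre cells with TNF. Untreated, it had 38858, 38386 and 39345 in Klf6fl/fl:Lyz2cre cells, against 36927, 37908 and 37638 in Lyz2cre cells. The genotypes did not overlap in either condition, but the gaps were small and their direction differed. In limma the log2 difference was -0.21 ± 0.04 (adjusted p = 2.3e-04) with TNF and 0.05 untreated (95% interval -0.02 to 0.12, adjusted p = 0.184). The TNF difference turned to 0.12 (adjusted p = 0.0103) and the untreated difference was 0.18 (adjusted p = 3.6e-05) in limma after scaling to total reads, so no direction is given for C3ar1. Its difference between conditions, -0.26 ± 0.05 (adjusted p = 1.0e-04), was -0.07 (adjusted p = 0.211) in limma after that scaling.

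**Figure D3:**
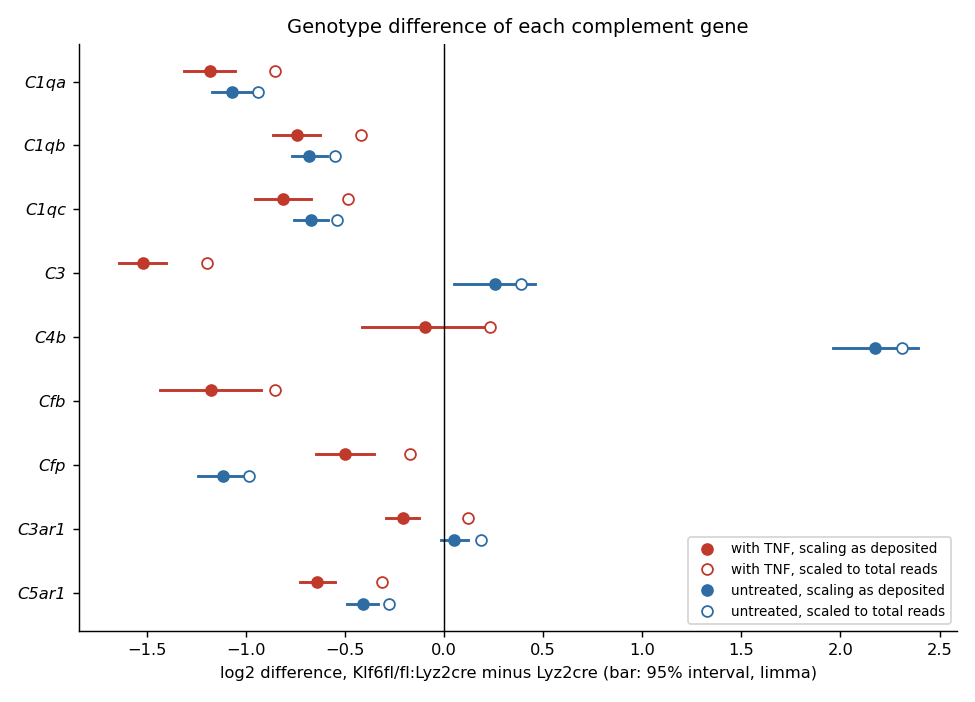
Log2 difference between genotypes (x axis, Klf6fl/fl:Lyz2cre minus Lyz2cre) of each complement gene with TNF and untreated; filled points are limma estimates on the deposited scaling with 95% intervals, and open points are the same libraries scaled to total reads. Cfb has no untreated point because it fell below the filter on low values, and C3ar1 with TNF lies at -0.21 on one scaling and 0.12 on the other.

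Set against all genes tested, none of the 9 complement genes was called higher in Klf6fl/fl:Lyz2cre cells with TNF, where 26.5% of 11717 genes were, and 8 of 9 were called lower, where 30.8% of genes were. The 8 include C3ar1, whose value turned to 0.12 after scaling to total reads, so that 7 were called lower and 1 higher on that scaling. The count of 0 higher was also 0 in edgeR and in DESeq2. In limma all 9 estimates with TNF were negative, the highest at -0.10, so no p threshold could give a higher call on the deposited scaling. In untreated cells 8 of the 9 genes could be tested: 2 were called higher, where 27.6% of 12715 genes were, and 5 lower, where 29.3% of genes were. In the test of the difference between conditions 1 of 9 was called with a higher value, where 24.1% of 13062 genes were, and 5 with a lower value, where 24.9% of genes were. The 5 include Cfb, which passed the filter through the TNF groups, and C3ar1 and C5ar1, whose calls were lost after scaling to total reads, which left 3. The median log2 difference of the tested complement genes was -0.74 with TNF, -0.54 untreated and -0.23 between conditions, beside medians of -0.01, -0.01 and 0.01 over all genes tested. Scaling to total reads moves the log2 difference of every gene up by 0.33 with TNF and by 0.13 untreated. On that scaling the limma log2 differences with TNF were -0.42 for C1qb, -0.49 for C1qc and -0.31 for C5ar1, all still called, and 0.23 for C4b, not called. The untreated difference of C3 was then 0.39.

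With TNF, C3 and Cfb stood above their untreated levels in both genotypes, and the other 7 genes stood below theirs. Since the tables of treated and untreated libraries were normalized separately, the 12 libraries were put on 1 set of size factors for this comparison, and the ratios of group means are given with no test. C3 had 18776 ± 266 rescaled counts in Klf6fl/fl:Lyz2cre cells with TNF, against 2467 ± 524 untreated, and 54702 ± 5324 in Lyz2cre cells with TNF, against 2011 ± 40.6 untreated. The ratios were 7.61 in Klf6fl/fl:Lyz2cre cells and 27.2 in Lyz2cre cells. For Cfb the pooled reads were 664 with TNF against 31 untreated in Klf6fl/fl:Lyz2cre cells, a scaled ratio of 27.7 (95% counting interval 19.4 to 41.2). In Lyz2cre cells they were 1349 with TNF against 5 untreated, a ratio of 310.3 (132.6 to 957), whose width reflects the 5 reads. Both intervals leave out the spread among libraries.

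The C1q genes were lower with TNF in both genotypes, and no libraries overlapped between conditions. C1qa was 1.67 times lower with TNF in Klf6fl/fl:Lyz2cre cells and 1.50 times lower in Lyz2cre cells. C1qb was 1.85 times lower in Klf6fl/fl:Lyz2cre cells and 1.73 times lower in Lyz2cre cells, and C1qc was 2.32 times lower in Klf6fl/fl:Lyz2cre cells and 2.05 times lower in Lyz2cre cells. Which genotype had the larger ratio turned with the scaling: in reads per M reads C1qa was 1.75, C1qb 1.94 and C1qc 2.43 times lower with TNF in Klf6fl/fl:Lyz2cre cells, and C1qa 1.85, C1qb 2.12 and C1qc 2.52 times lower in Lyz2cre cells. The limma test did not call the difference between the genotype differences of C1qa (-0.11, 95% interval -0.30 to 0.08, adjusted p = 0.315), C1qb (-0.06, -0.23 to 0.10, adjusted p = 0.525) or C1qc (-0.14, -0.33 to 0.05, adjusted p = 0.210). Without the second Lyz2cre library with TNF, C1qa (-0.20, adjusted p = 0.0174) and C1qc (-0.24, adjusted p = 0.0065) were called in limma. Scaled to total reads, these 3 values were 0.08, 0.13 and 0.05, none of them called.

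The rescaled levels put each C1q gene in the same order over the groups, highest in untreated Lyz2cre cells and lowest in Klf6fl/fl:Lyz2cre cells with TNF, except for the middle pair. For C1qa, Lyz2cre cells with TNF (24326 ± 2592) stood above untreated Klf6fl/fl:Lyz2cre cells (17658 ± 1493). For C1qc, Lyz2cre cells with TNF (20000.2 ± 2233) stood below untreated Klf6fl/fl:Lyz2cre cells (26026 ± 1123). For C1qb these groups, at 34859.6 ± 3028 and 38079 ± 2415, did not overlap (31363 to 36613 and 36667 to 40867), but their gap was small beside their ranges. The comparison of this pair depended on the scaling. In CPM, C1qa had 1058 ± 98.7 in Lyz2cre cells with TNF and 1021 ± 86.6 in untreated Klf6fl/fl:Lyz2cre cells. Its libraries then overlapped (945 to 1126 and 961 to 1121). For the same groups C1qb had 1516 ± 111 and 2203 ± 140 CPM, and C1qc 870 ± 85.9 and 1505 ± 63.7 CPM.

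Of the other genes, C5ar1 was 1.65 times lower with TNF in Klf6fl/fl:Lyz2cre cells and 1.37 times lower in Lyz2cre cells. C3ar1 was 1.94 times lower with TNF in Klf6fl/fl:Lyz2cre cells and 1.58 times lower in Lyz2cre cells. In reads per M reads C5ar1 was 1.73 and C3ar1 2.03 times lower with TNF in Klf6fl/fl:Lyz2cre cells, and C5ar1 1.68 and C3ar1 1.94 times lower in Lyz2cre cells. Cfp ran the other way between genotypes, at 1.26 times lower with TNF in Klf6fl/fl:Lyz2cre cells and 1.87 times lower in Lyz2cre cells. C4b had 152 ± 12.4 rescaled counts in Klf6fl/fl:Lyz2cre cells with TNF, against 832 ± 147 untreated, and 166 ± 30.3 in Lyz2cre cells with TNF, against 179.6 ± 8.24 untreated. It was thus 5.46 times lower with TNF in Klf6fl/fl:Lyz2cre cells, and its libraries overlapped between conditions in Lyz2cre cells. The summed shares of stromal and neutrophil markers given above were also lower with TNF in both genotypes. Mean CPM was lower with TNF for 15 of 15 stromal markers in Klf6fl/fl:Lyz2cre cells and for 13 of 15 in Lyz2cre cells, and for 11 of 11 neutrophil markers in both. The share of all genes with a lower mean CPM is not given beside these counts, so nothing is read from the counts. The part of these markers in the ratios was not tested.

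**Figure D4:**
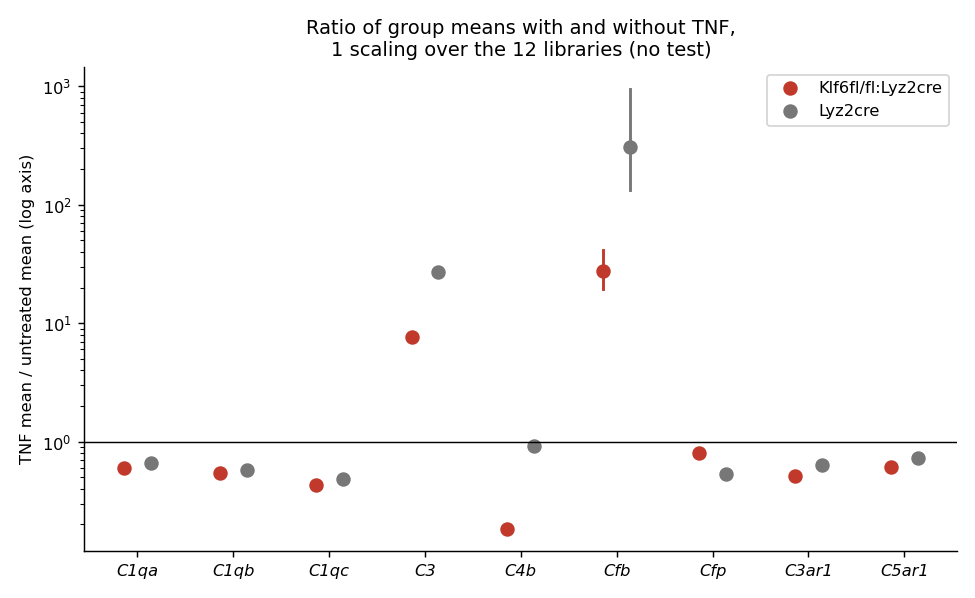
Ratio of the TNF mean to the untreated mean (y axis, logarithmic) for each complement gene in Klf6fl/fl:Lyz2cre and Lyz2cre cells, on 1 scaling over the 12 libraries and with no test; for Cfb the ratio and its 95% counting interval come from pooled reads. C3 and Cfb stand above 1 (7.61 and 27.7 in Klf6fl/fl:Lyz2cre cells, 27.2 and 310.3 in Lyz2cre cells), and the other 7 genes stand below 1 in both genotypes. C4b in Lyz2cre cells is close to 1, at 0.92, and its libraries overlap between conditions.

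The rest of the pathway was read from 57 further complement genes, of which 43 have a row in either table: 28 components, 12 receptors and 17 regulators were listed. With TNF 20 could be tested, and 6 were called higher and 7 lower in Klf6fl/fl:Lyz2cre cells, or 12 higher and 5 lower after scaling to total reads. Untreated 27 could be tested, and 10 were called higher and 9 lower. Beside the shares of all genes given above, nothing is read from these counts about the list as a whole. Between conditions 27 could be tested, and 4 were called with a higher and 9 with a lower value, or 8 and 6 after scaling to total reads. Some genes did not reach 1 CPM in every group compared and passed the filter mainly through the group where they are high: 4 with TNF, 8 untreated and 11 between conditions. Of those named below they are C2, Serping1 and Cd55 with TNF, and C1s1, Masp1, Cd55, Clu and Csmd1 untreated. The median log2 difference of the tested genes was 0.07 with TNF, -0.06 untreated and -0.15 between conditions.

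Untreated, C1ra, the gene of a protease that acts after C1q, was higher in Klf6fl/fl:Lyz2cre cells, where C1q itself was lower. C1ra, the mouse gene of C1r, had 433, 366 and 430.3 normalized counts in untreated Klf6fl/fl:Lyz2cre cells, against 139, 108 and 114 in untreated Lyz2cre cells (limma log2 difference 1.77, adjusted p = 3.4e-10). C1s1, the gene of C1s, had 151, 157 and 143 in Klf6fl/fl:Lyz2cre cells, against 9.85, 12.1 and 9.84 in Lyz2cre cells (3.71, adjusted p = 1.3e-10 in limma). The genotypes of both genes stood apart without overlap. Both have near-identical copies (C1rb and C1s2) to which counting could assign reads, so their levels are uncertain. Masp1, a protease of the lectin pathway, had 208, 149.5 and 201 normalized counts in untreated Klf6fl/fl:Lyz2cre cells, against 15.3, 10.9 and 19.7 in Lyz2cre cells (3.54, adjusted p = 3.8e-10 in limma). Untreated C1s1 and Masp1 passed the filter through Klf6fl/fl:Lyz2cre cells alone, where they are high, so their calls are no support for a difference.

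Inhibitors were among the genes with the largest untreated differences. Serping1, the C1 inhibitor, which blocks C1r, C1s and the MASP proteases, had 1223, 1121 and 1318 normalized counts in untreated Klf6fl/fl:Lyz2cre cells, against 86.4, 40.0 and 74.4 in Lyz2cre cells. Its limma log2 difference was 4.24 (adjusted p = 9.6e-13) untreated and 1.63 (adjusted p = 1.5e-04) with TNF. Csmd1, a membrane inhibitor (3.09, adjusted p = 5.4e-10 in limma), and Clu, the gene of clusterin, which blocks the terminal complex (1.41, adjusted p = 0.0015 in limma), were also higher untreated. Cd55, the decay accelerating factor, was lower untreated (-1.57, adjusted p = 1.2e-04 in limma). Untreated, Csmd1 and Clu reached 1 CPM in every library only in Klf6fl/fl:Lyz2cre cells, and Cd55 only in Lyz2cre cells, where each is high. With TNF, Serping1 did so only in Klf6fl/fl:Lyz2cre cells. These 4 calls are no support for a difference. The stromal marker sum given with C4b moved with the untreated values of C1ra, C1s1, Masp1, Serping1, Csmd1 and Clu, and its part in them was not tested.

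Among recognition molecules and receptors the larger differences were towards lower values. Fcna, ficolin A of the lectin pathway, had 177, 209.9 and 193 normalized counts in Klf6fl/fl:Lyz2cre cells with TNF, against 584, 542 and 556 in Lyz2cre cells with TNF. Untreated, it had 204, 241 and 228 in Klf6fl/fl:Lyz2cre cells, against 572, 603 and 614 in Lyz2cre cells. The genotypes did not overlap, with limma log2 differences of -1.53 (adjusted p = 6.9e-10) with TNF and -1.41 (adjusted p = 8.2e-11) untreated. Itgax, the alpha chain of complement receptor CR4, differed by -1.94 (adjusted p = 7.1e-11) with TNF and -1.32 (adjusted p = 1.9e-08) untreated in limma. C5ar2, the other receptor of C5a, differed by -1.58 (adjusted p = 5.1e-07) with TNF and -0.48 (adjusted p = 9.4e-05) untreated in limma. C2, the protease partner of C4, differed by -0.99 with TNF (adjusted p = 0.028 in limma) at 8.41 to 17.3 normalized counts in Klf6fl/fl:Lyz2cre cells, against 22.9 to 30.9 in Lyz2cre cells. With TNF, C2 reached 1 CPM in every library only in Lyz2cre cells, where it is high, so its call is no support for a difference.

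**Figure D5:**
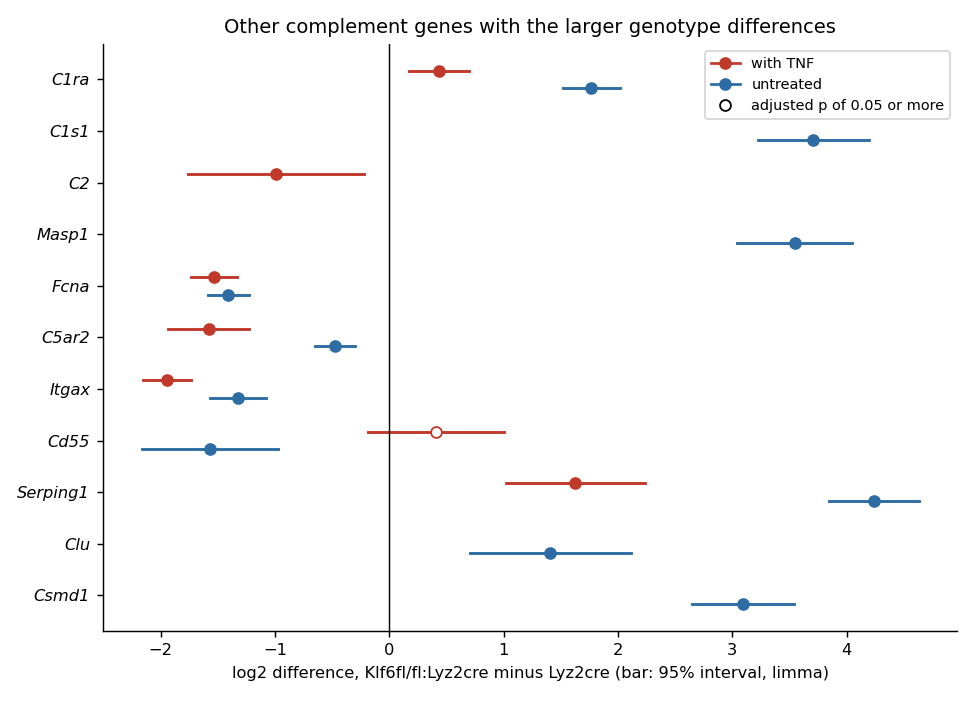
Log2 difference between genotypes (x axis, Klf6fl/fl:Lyz2cre minus Lyz2cre, with 95% intervals from limma) of the further complement genes that were called in at least 1 test with a log2 difference of 1 or more in size; open points are not called, and a missing point fell below the filter on low values. C1ra, C1s1, Masp1, Serping1 and Csmd1 lie at 1.77 to 4.24 untreated, and Fcna and Itgax lie below -1 in both conditions.

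Over the 12 libraries, the genes outside these lists whose log2 levels followed the mean of the C1q genes most closely were Cd74 (Pearson r = 0.995), Saraf (0.995), Ucp2 (0.993), Lman2 (0.991) and Tsc22d1 (0.991), out of 8566 genes ranked. Cd74, the invariant chain of class II MHC, averaged 4163 rescaled counts in Klf6fl/fl:Lyz2cre cells with TNF, 11024 in Lyz2cre cells with TNF, 11640.2 in untreated Klf6fl/fl:Lyz2cre cells and 29897 in untreated Lyz2cre cells. The genes closest to C3 were Btg1 (0.999), Cflar (0.997), Acsl1 (0.997), Surf4 (0.997) and Tarm1 (0.996). The 12 libraries form 4 groups, so these values mostly describe the order of 4 group means and are given without a test.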

How the data were processed

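Total RNA was sequenced after removal of ribosomal RNA from 150 ng, per the labels' protocols. The values deposited by the authors are a normalized signal for each Ensembl gene and library, in 1 table for untreated and 1 for TNF libraries. The unit is stated nowhere: within each library 100% of values are whole multiples of 1 step (within 0.001 reads), so the deposited signal is reads divided by a size factor, and recomputed median-of-ratios factors within each table equal the steps. The plan allowed for normalized values or raw counts, and its limma test for normalized values was used. Per the submitters' processing notes, Cufflinks, GRCm39 and mm10 were involved, in a role that is not given. How reads were aligned and counted, and whether strand was used, is not stated.

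The 9 complement genes and all lists were chosen with earlier results of these data known. The genotype tests used limma 3.58.1 (R 4.3.3) with its trend option on log2(value + 1), a table at a time, on genes that reached 1 CPM in 3 or more libraries, with Benjamini-Hochberg adjustment over all of them. The difference between the genotype differences was fitted in limma over the 4 groups, in genes of both tables. TNF against untreated was described on joint size factors. Alternatives were edgeR 4.0.16 with TMM on the recovered reads, DESeq2 1.42.0, scaling to total reads, 10 as the number added, no filter, 5 CPM, adjusted p below 0.01, each library left out, and the replicate number as a block. The limma script was tested on simulated data. All 9 genes were named, and further genes when called with a log2 difference of at least 1 in size. Likeness was ranked among genes with at least 10 CPM, and the permutation test of the C1q shares was added after the data were seen. Counting intervals cover counting error only, since reads carried no molecular identifiers. Tables and figures were made with Python 3.11.15 (pandas 2.3.3, numpy 2.4.6, matplotlib 3.10.9 and scipy 1.17.1). The result of 1 further complement gene is not reported here.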

Additional observations from a re-analysis of the deposited data

Results flagged for a closer look

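Among the 9 complement genes, the genotype difference itself differed between cells with TNF and untreated cells for 6 in limma (log2, TNF minus untreated, Benjamini-Hochberg adjusted over all genes). It was -1.78 for C3 (adjusted p = 2.1e-09), -2.27 for C4b (adjusted p = 5.5e-09), -3.25 for Cfb (adjusted p = 3.6e-05), 0.62 for Cfp (adjusted p = 9.1e-05), -0.26 for C3ar1 (adjusted p = 1.0e-04) and -0.23 for C5ar1 (adjusted p = 0.0019). After scaling to total reads the calls of C3ar1 (-0.07, adjusted p = 0.211) and C5ar1 (-0.04, adjusted p = 0.588) were lost in limma. Cfb entered the test only through the TNF groups, where it is high, so its call is no support for a difference. Of all 13062 genes tested, 24.1% were called with a higher and 24.9% with a lower value.

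Of the further complement genes, the same limma test singled out C1ra (-1.33, adjusted p = 5.8e-06), C1s1 (-2.78, adjusted p = 3.9e-05), Serping1 (-2.61, adjusted p = 4.5e-06) and Masp1 (-1.58, adjusted p = 0.0467), whose untreated values were higher in Klf6fl/fl:Lyz2cre cells. It also singled out C2 (-1.53, adjusted p = 0.0233), C5ar2 (-1.11, adjusted p = 6.2e-05) and Cd55 (1.97, adjusted p = 2.1e-04). C1s1 and Masp1 reached 1 CPM in every library only in untreated Klf6fl/fl:Lyz2cre cells, and C2 only in Lyz2cre cells with TNF. Each is high there, so these calls are no support for a difference. Cd55 reached 1 CPM in every library only in Klf6fl/fl:Lyz2cre cells with TNF and in untreated Lyz2cre cells. High values in those groups raise this difference, so the Cd55 call is no support for a difference either. Serping1 was also below 1 CPM in part of the Lyz2cre libraries with TNF. The calls of Masp1 and C2 were each lost under several alternatives, Masp1 also in edgeR (adjusted p = 0.351) and DESeq2 (adjusted p = 0.255).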

How the results depend on the processing

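Among alternative values for the 9 complement genes, 400 kept sign and call, 5 that were not called changed sign (C4b with TNF, and C1qa, C1qb and C1qc between conditions), 9 lost the call, 3 gained it and 1 called value reversed. Scaling to total reads reversed C3ar1 with TNF to 0.12. It also gave 1 complement gene called higher with TNF (0 as reported) and 3 with a lower value between conditions (5 as reported), and 12 further genes called higher with TNF (6) and 8 with a higher value between conditions (4). Untreated, 1 complement gene was called higher (2 as reported) with DESeq2 and at an adjusted p below 0.01, and 1 to 2 when a library was left out, the lost gene being C3. Further genes called higher untreated were 6 to 10 when a library was left out (10 as reported), with 6 without the first Klf6fl/fl:Lyz2cre library. The causes were not tested. Same-numbered libraries of the genotypes correlated, after removal of group means, at -0.0209, -0.0123 and -0.0295 with TNF and at 0.152, -0.0378 and 0.158 untreated, so the numbers were not taken to pair samples. The replicate block gave 6473 genes called with TNF (6711 as reported), 7284 untreated (7230) and 6296 between conditions (6392), and changed the call of none of the 9. TNF ratios moved with the scaling too: C3 was 22.2 times higher with TNF in Lyz2cre cells in reads per M reads (27.2 as reported), and C4b in Lyz2cre cells was 1.33 times lower without overlap (1.08 as reported). Per reads rather than per kilobase, C1qa was 25.0% of C1q with TNF in Klf6fl/fl:Lyz2cre cells, against 30.7% in Lyz2cre cells. Untreated Cfb, at 0 to 11 reads a library, is limited by depth.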

Other observations

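Cfd, the gene of factor D, which cleaves factor B, was listed in the untreated table alone and was uneven within groups. It had 90, 0 and 0 reads in untreated Klf6fl/fl:Lyz2cre cells, against 67, 100 and 2 reads in untreated Lyz2cre cells (limma log2 difference -2.86, adjusted p = 0.080). Lrp1, a partner of calreticulin in the uptake of C1q-coated cells, was higher in Klf6fl/fl:Lyz2cre cells with TNF (0.83, adjusted p = 1.5e-08) and untreated (0.49, adjusted p = 3.6e-07) in limma. Calr, the gene of calreticulin, differed by 0.04 with TNF (adjusted p = 0.37) and 0.02 untreated (adjusted p = 0.56). Cfd, Lrp1 and Calr were chosen after their values were seen.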
